A study of Mus musculus with 16 samples.

Results

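The transcripts described here are 10 genes of transforming growth factor-β (TGF-β) signaling in mouse cells labelled as juxtaglomerular (JG) cells, which line the renal afferent arteriole and make renin. They were taken by gene symbol from a count table of 46078 genes, and all 10 were among the 14897 genes that passed a filter on low counts. The set holds the ligands Tgfb1, Tgfb2 and Tgfb3, the receptors Tgfbr1, Tgfbr2, Tgfbr3 and Bmpr2, and the signal transducers Smad2, Smad3 and Smad7. These cells are described as carrying yellow fluorescent protein driven by the renin promoter. Cultures received either a precursor of a microRNA not found in mammals (control) or miR-106b, and were harvested at 48 h. The 2 RNA kinds came from separate cultures of these transfections. One was polyadenylated RNA (polyA), which samples the messenger RNA of the whole cell, and the other was RNA recovered by immunoprecipitation of Argonaute 2 (Ago2-IP), the protein that holds microRNAs on their target transcripts. Each of the 4 combinations had 4 replicate cultures, for 16 libraries.

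TGF-β ligands are secreted as latent dimers and, once released, are gathered by the constitutively active type II receptor Tgfbr2, which phosphorylates the type I receptor Tgfbr1. Tgfbr1 in turn phosphorylates Smad2 and Smad3, which enter the nucleus with Smad4. Tgfbr3 (betaglycan) is a coreceptor that presents ligand, Bmpr2 is the type II receptor of the bone morphogenetic protein (BMP) branch, and Smad7 is an inhibitory SMAD that blocks the type I receptor. In the renal vasculature and mesangium this pathway is best known for matrix deposition and control of the mural cell state. MicroRNAs of the miR-106b family pair through bases 2 to 8, the seed, with complementary sites that lie mostly in 3′ untranslated regions (3′UTRs), and Tgfbr2, Bmpr2 and Smad7 are reported targets of this family.

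The mature sequences that share the seed of miR-106b-5p are shown 5′ to 3′ because the seed defines which sites were searched. They are from RefSeq (GRCm38.p6) and the seed is in capitals. The miR-106b-5p sequence lies on chromosome 5, minus strand, at chr5:138165787-138165807, close to that of miR-93-5p at chr5:138165574-138165596.
mmu-miR-106b-5p: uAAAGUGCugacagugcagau
mmu-miR-93-5p: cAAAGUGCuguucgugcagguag
mmu-miR-17-5p: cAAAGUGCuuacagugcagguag
mmu-miR-20a-5p: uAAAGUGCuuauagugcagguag
mmu-miR-20b-5p: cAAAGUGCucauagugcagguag
mmu-miR-106a-5p: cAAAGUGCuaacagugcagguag
mmu-miR-6383: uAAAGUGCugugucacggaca

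The seed calls for 3 kinds of site on the sense strand of a 3′UTR: GCACTTT (7mer-m8), CACTTTA (7mer-A1), and GCACTTTA (8mer), which contains both of the others and was counted only as an 8mer. The search used the longest 3′UTR annotated for each gene in GENCODE release M21 (GRCm38). Of the 10 genes, 6 had at least 1 site. Tgfbr2, with a 3′UTR of 6085 bases, had the only 8mer in the set. Bmpr2, with a 3′UTR of 8529 bases, had 2 sites of the 7mer-m8 kind, and Tgfbr1 and Tgfb3 had 1 site each of the 7mer-A1 kind. These sites are shown with their surroundings, on the strand of the gene, with the site in capitals.
Tgfbr2, chr9:116090062-116090091, minus strand: caataacgtttGCACTTTAttaatgcctgt
Bmpr2, first site, chr1:59870675-59870704, plus strand: ttttaagttttGCACTTTtgtttagtcttg
Bmpr2, second site, chr1:59874351-59874380, plus strand: ggtatcacactGCACTTTtactctgttagt
Tgfbr1, chr4:47411222-47411251, plus strand: tcttaaactaaCACTTTAaactctatagtc
Tgfb3, chr12:86056745-86056767, minus strand: agtaaagacctCACTTTAaggtg

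The 2 genes on chromosome 18 also had sites of the 7mer-m8 kind. Smad7 had 1 in a 3′UTR of 1570 bases. Smad2 had 2 in a 3′UTR of 6233 bases, and both lay in a stretch of that 3′UTR beyond the end of the gene as the count table gives it. No site of these kinds was found in the longest 3′UTR of Tgfb1, Tgfb2, Tgfbr3 or Smad3. Among 13234 tested genes with a 3′UTR, 23.0% held a site of any of the 3 kinds, 15.3% held an 8mer or 7mer-m8, and 4.59% held an 8mer. The 3′UTRs of the 10 genes were long, with a median of 3282 bases against 1398 over all tested genes, and among genes with a 3′UTR of at least the former length 52.5% held a site.

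Total counts ranged from 2579086 to 9459585 per library, with group medians of 6450099 in polyA control and 3264121.5 to 3645937.5 in the other 3 groups. Ren1, the gene that defines JG cells, had 0 counts in all 16 libraries, and Akr1b7, which accompanies renin in these cells, had at most 3 counts in any group. Other markers on the list of 14 for JG and mural cells were present, and 12 of the 14 passed the filter. Transcripts of cardiac muscle were abundant, with Myh6 (a heavy chain of cardiac myosin) at 8371 to 11928 CPM (counts scaled to a library size of 1000000) in polyA control libraries and 37803 to 40531 CPM in Ago2-IP control libraries. The summed level of 25 cardiac genes was 25902 to 36418 CPM in polyA control, 49953 to 85705 CPM in polyA miR-106b and 111629 to 123581 CPM in the 8 Ago2-IP libraries. The polyA miR-106b libraries thus lay between the polyA control and the Ago2-IP libraries. The same order held for 8 endothelial genes (292 to 432, 555 to 1022 and 1256 to 1401 CPM), for 8 macrophage and blood genes (139 to 206, 303 to 489 and 639 to 715 CPM) and for the JG and mural list (2524 to 2879, 3711 to 4760 and 5491 to 6066 CPM). For 10 proliferation genes the order was the opposite, at 652 to 956 CPM in polyA control, 116 to 442 CPM in polyA miR-106b and 88.4 to 101 CPM in Ago2-IP. The 8 kidney tubule genes did not follow either order, with 422 to 454 CPM in polyA control, 224 to 398 CPM in polyA miR-106b and 321 to 364 CPM in Ago2-IP. Within the JG and mural list Acta2 ran against the sum. Its means were 757 CPM in polyA control, 590 CPM in polyA miR-106b and 254 CPM in Ago2-IP control. Whether RNA of the 2 kinds was mixed, or a library carries another library's label, was not tested, and every change of the polyA miR-106b libraries given here rests on their labels.

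**Figure D1:**
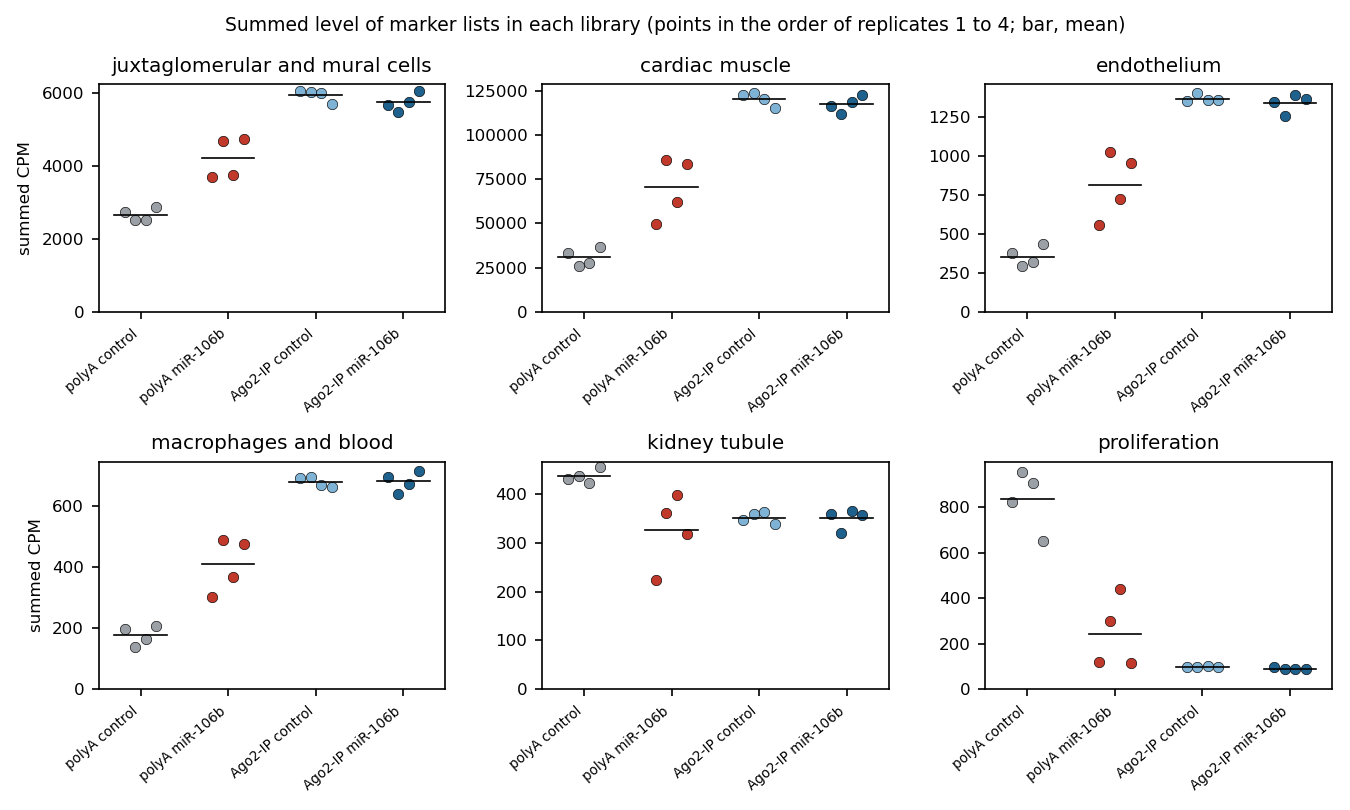
Summed level of each marker list (y axis, CPM scaled to library size) in the 16 libraries, as points in replicate order within the 4 groups on the x axis, with a bar at the group mean. For cardiac muscle the polyA miR-106b mean of 70364 CPM stands between 30844 CPM in polyA control and 120331 CPM in Ago2-IP control, whereas proliferation genes run from 834 through 244 to 98.8 CPM.

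In polyA RNA all 6 marker lists differed between transfections (exact permutation test, two-sided, 4 against 4 libraries, p = 0.0286, the smallest that 4 against 4 allows, adjusted p = 0.0490 over 12 tests). The cardiac list was 2.28-fold and the endothelial list 2.30-fold higher with miR-106b, the JG and mural list was 1.58-fold higher, and the proliferation list was at 0.292 and the list of 8 kidney tubule genes at 0.746 of control. In Ago2-IP RNA only the proliferation list passed, at 0.920 of control (exact permutation test, adjusted p = 0.0490). Of 23 cardiac genes tested in polyA RNA 22 were higher, as were all 8 endothelial and all 8 macrophage and blood genes, and all 10 proliferation genes were lower. Of the 12 JG and mural genes tested 7 were higher and 0 lower. Only 3 of the 8 kidney tubule genes passed the filter, and 2 of them were lower. Over all genes 19% were higher and 21.5% lower. These lists moved together with the polyA differences of the TGF-β genes given next, and their part in those was not tested. In bulk RNA, fewer cells of a type and less RNA per cell cannot be told apart.

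In polyA RNA, 6 of the 10 TGF-β genes differed between miR-106b and control by the quasi-likelihood F test of edgeR (adjusted p under 0.05), 5 of them lower and 1 higher. The genes that fell were Smad2, Smad7, Bmpr2, Tgfbr1 and Tgfb1, and the one that rose was Tgfbr3. Over all 14897 genes 40.5% passed this test, 21.5% lower and 19% higher, so that a large share of all transcripts also differed. The median log2 change was -0.24 over the 10 genes and -0.05 over all genes. Levels here are normalised CPM within each RNA kind, and changes are fitted log2 values with their standard errors.

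Among the ligands, Tgfb1, the isoform most widely expressed and most studied in the kidney, stood at 225, 216, 225 and 211 CPM in polyA control and at 169, 183, 175 and 177 CPM with miR-106b. The 2 groups did not overlap, and the fitted change was -0.32 ± 0.094 (adjusted p = 0.0166, edgeR). This small fall lost its call without polyA control replicate 1, 2 or 3 or polyA miR-106b replicate 1 (adjusted p between 0.0661 and 0.181), and also under DESeq2 size factors (0.0577), without a low-count filter (0.121) and in 1 fit of all 16 libraries (0.0520). Tgfb2, the isoform needed in kidney and heart development, was at 56.8, 52.4, 48.8 and 70.3 CPM in control and at 138, 48.3, 47.1 and 73.3 CPM with miR-106b. A single library, polyA miR-106b replicate 1, was far above the rest, and the change of 0.44 ± 0.322 was not past the threshold (adjusted p = 0.314). Tgfb3, the third isoform, followed the same library, with 159 CPM there against 81.7 to 120 CPM in the other 3 miR-106b libraries and 97.3 to 119 CPM in control. Its change was 0.14 ± 0.170 (adjusted p = 0.553), and 12.4% of its exon bases overlap antisense genes that reads without strand cannot separate.

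Of the receptors, the type I receptor Tgfbr1 was the least abundant of the 10, at 14.7, 12.8, 13.6 and 11.7 CPM in polyA control and 10.1, 9.61, 9.36 and 8.89 CPM with miR-106b. The groups did not overlap, and the change was -0.47 ± 0.162 (adjusted p = 0.0343, edgeR). The call was lost in 7 of the 8 fits that left out 1 library, all but that without polyA control replicate 4, with an adjusted p of up to 0.207. It was lost as well with the replicate block (adjusted p = 0.0690), DESeq2 size factors (0.0672), DESeq2's Wald test (0.100), no filter (0.161) and 1 fit of all 16 libraries (0.122). Tgfbr2, the type II receptor and bearer of the 8mer shown above, was at 187, 189, 185 and 176 CPM in control and at 213, 144, 151 and 148 CPM with miR-106b. With miR-106b, 3 libraries lay below every control library, while replicate 1 lay above them all. The change over all libraries was -0.16 ± 0.131 (adjusted p = 0.345, edgeR), with an approximate 95% interval from -0.42 to 0.09. Without polyA miR-106b replicate 1 it was -0.24 with an adjusted p of 0.0440, so that this library decides the call for Tgfbr2.

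Bmpr2, with 2 seed sites, fell from 92.6, 92.4, 99.8 and 74.7 CPM in polyA control to 64.1, 57.9, 69.9 and 44.1 CPM with miR-106b. Every miR-106b library was below every control library, and the change of -0.60 ± 0.145, or 1.52-fold, had an adjusted p of 0.00566 (edgeR). It missed the threshold only without polyA control replicate 3, at -0.46 with an adjusted p of 0.0590. Tgfbr3, the coreceptor without a seed site, went the other way, from 39.6, 44.6, 51.0 and 44.9 CPM in control to 57.9, 59.5, 55.9 and 58.1 CPM with miR-106b. Its groups did not overlap either, and the change of 0.36 ± 0.110, or 1.28-fold, had an adjusted p of 0.0195 (edgeR), which was 0.0525 with no filter on low counts.

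The SMADs held the largest falls in the set. Smad2, which carries the TGF-β and activin signal, was at 31.9, 32.7, 35.5 and 24.1 CPM in polyA control and at 19.89, 16.02, 14.05 and 17.03 CPM with miR-106b. The fall of 0.89 on the log2 scale (SE 0.161), or 1.85-fold, had an adjusted p of 0.00120 (edgeR). Smad7, the inhibitory SMAD, was at 121, 121, 123 and 106.1 CPM in control and 71.1, 71.8, 91.4 and 62.6 CPM with miR-106b. Its fall of 0.66 (SE 0.124), or 1.58-fold, had an adjusted p of 0.00139 (edgeR). Neither gene overlapped between the groups, and both kept their call in all 16 alternative fits, with an adjusted p of at most 0.0110 for Smad2 and 0.0166 for Smad7. Smad3, the partner of Smad2, did not share in this, with 84.4 to 97.6 CPM in control and 108, 65.1, 66.4 and 84.8 CPM with miR-106b. Its change was -0.15 ± 0.152 (adjusted p = 0.446, edgeR), and replicate 1 was again the highest library.

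Groups that did not overlap were found for 6 of the 10 genes, the same 6 that passed the test, where 38.3% of all tested genes had such groups. PolyA miR-106b replicate 1 was the highest polyA library for Tgfb2, Tgfb3, Tgfbr2 and Smad3. By Dixon's test it stood far from the rest of its group for Tgfbr2 only. Without this library 5 of the 10 genes passed, as Tgfbr2 gained a call and Tgfb1 and Tgfbr1 lost theirs. More of all genes passed in that fit than in the main fit. By seed site, the genes that fell include 3 with a 7mer-m8 (Smad2, Smad7 and Bmpr2), 1 with a 7mer-A1 (Tgfbr1) and 1 with none (Tgfb1). Tgfbr2, with the only 8mer, and Tgfb3, with a 7mer-A1, were not called in the main fit. Over all tested genes the median polyA change was -0.12 for the 2023 genes with an 8mer or 7mer-m8, -0.09 for the 1025 with a 7mer-A1 only and -0.03 for the 10186 with none of these sites, and the share called lower was 25.8%, 24.4% and 22.7%. In the Ago2:polyA ratio the median change of these classes was -0.02, -0.03 and -0.12, with 8.5%, 9.17% and 8.14% called higher and 19.1%, 19.7% and 22.1% called lower. Differences between the classes were not tested.

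**Figure D2:**
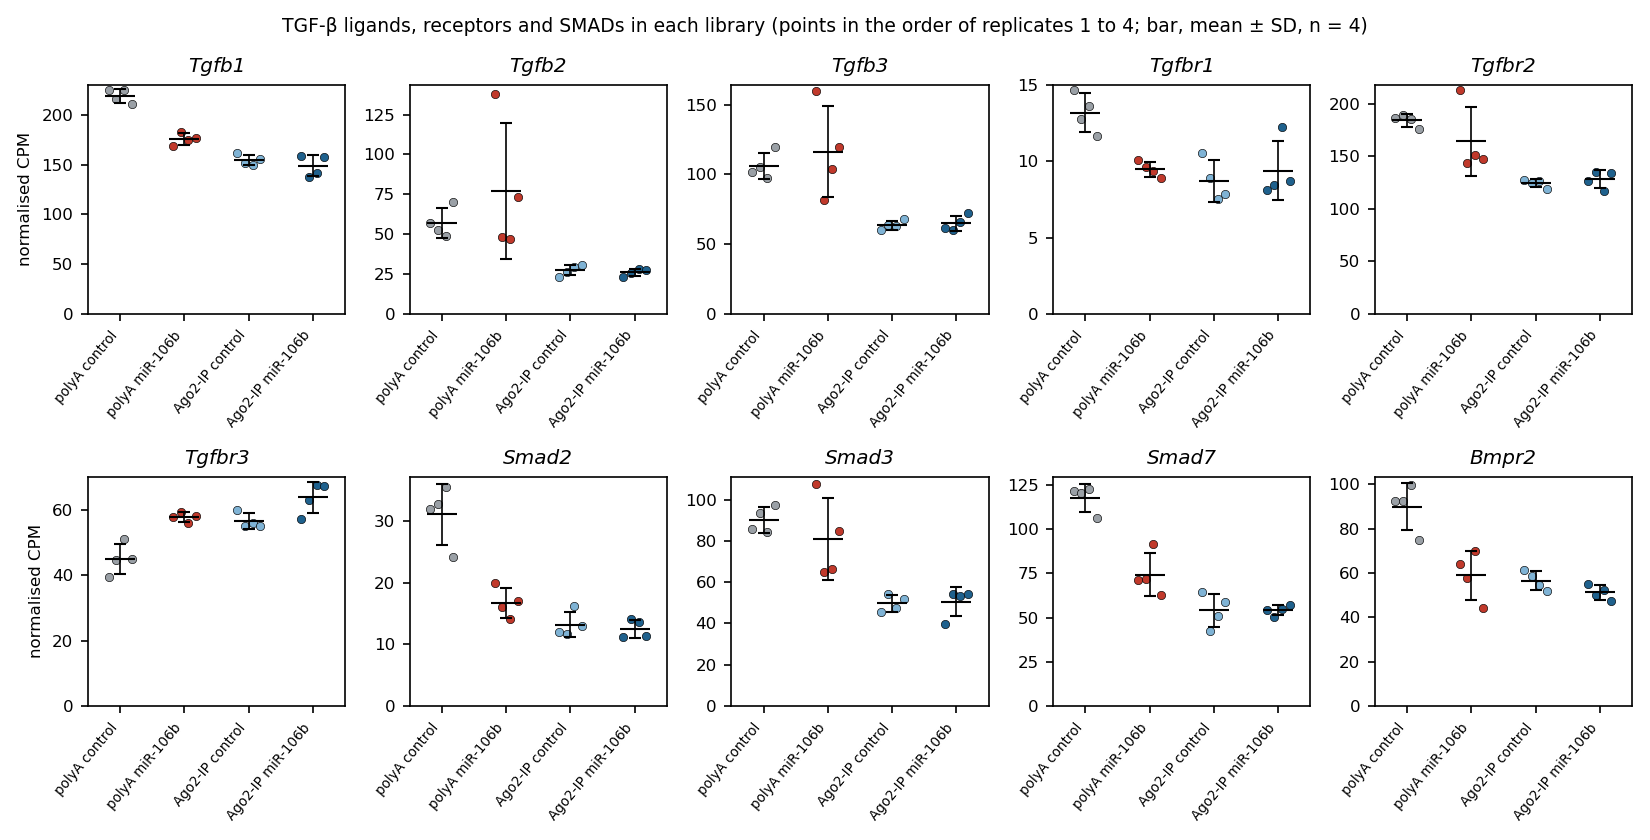
Normalised CPM (y axis, from 0, TMM within each RNA kind) of the 10 genes in the 16 libraries, with points in replicate order, bars at the mean and whiskers of 1 SD (n = 4 per group). Smad2 falls from a mean of 31.0 to 16.7 CPM and Smad7 from 118 to 74.2 CPM in polyA RNA, while the Ago2-IP groups lie near each other for every gene.

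With Ago2-IP RNA the question was whether more of each transcript was bound to Ago2 when miR-106b was added. None of the 10 genes differed between transfections, and none had groups apart. Over all genes 0% passed by edgeR after adjustment, 5.55% had an unadjusted p under 0.05, and 3.26% had groups that did not overlap. None of the 10 genes had an unadjusted p under 0.05. Of all genes DESeq2's Wald test called 2 and edgeR's likelihood ratio test 18, and neither called any of the 10.

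The fitted changes in Ago2-IP RNA ran from -0.14 ± 0.096 for Bmpr2 to 0.18 ± 0.091 for Tgfbr3, with adjusted p-values between 0.888 and 1.0 (edgeR). The latter, from a mean of 56.6 to 63.9 CPM, had the smallest unadjusted p in the set, 0.0548. Bmpr2 was at 61.5, 58.6, 54.5 and 51.8 CPM in control and 55.0, 50.2, 52.5 and 47.1 CPM with miR-106b. Tgfbr2, with the 8mer, was at 127, 125, 126 and 118 CPM in control and 127, 135, 117 and 134 CPM with miR-106b, and its change of 0.05 ± 0.064 had an approximate 95% interval from -0.08 to 0.17. Smad7 was at 64.3, 42.4, 50.8 and 58.5 CPM in control and 54.2, 50.2, 55.1 and 57.0 CPM with miR-106b, with a change of 0.00 ± 0.102 and an interval from -0.20 to 0.20. For Smad7 this interval leaves out a change of the size seen in polyA RNA. So did the intervals of Bmpr2 (-0.33 to 0.04, polyA change -0.60), Tgfb1 (-0.17 to 0.06, polyA change -0.32) and Smad2 (-0.44 to 0.30, polyA change -0.89).

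Smad2 was at 11.95, 11.73, 16.12 and 12.88 CPM in Ago2-IP control and 11.24, 14.01, 13.53 and 11.35 CPM with miR-106b. These are low levels, and its change of -0.07 ± 0.189 had an interval from -0.44 to 0.30. For Tgfbr1 the libraries ranged from 7.52 to 12.2 CPM, and its interval from -0.34 to 0.57 was the widest of the 10. Precision at this depth was therefore lower for these 2 genes than for Tgfbr2, Tgfb1 or Tgfb3.

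The change of the Ago2:polyA ratio with miR-106b, tested over all 16 libraries as an interaction term of transfection with RNA kind, was then examined, since the study looked for targets by a rise of this ratio. Of the 10 genes 2 passed, Smad2 and Smad7, and both had a higher ratio with miR-106b. Over all genes 27.3% passed, 7.62% with a higher ratio and 19.7% with a lower one. The 3 comparisons of miR-106b with control share libraries, so their values stand side by side here and are not separate evidence. For Smad2 the ratio rose by 0.67 ± 0.238 (adjusted p = 0.0377, edgeR), from a polyA change of -0.89 and an Ago2-IP change of -0.07. For Smad7 it rose by 0.52 ± 0.171 (adjusted p = 0.0254, edgeR), from -0.66 in polyA RNA and 0.00 in Ago2-IP RNA. These rises are 1.59-fold and 1.44-fold, both under 2-fold, and went with a lower polyA level and not with a higher level in Ago2-IP RNA. The ratios of all 14897 genes also drew together, with a 5th to 95th percentile from -2.05 to 2.15 on the log2 scale in control and from -1.31 to 1.01 with miR-106b. Smad2 and Smad7 had low ratios in control, at -0.91 and -0.83, and were at -0.25 and -0.28 with miR-106b. As for every marker list but kidney tubule, their mean polyA level with miR-106b lay between those of polyA control and Ago2-IP control (TMM over all 16 libraries), with 27.4, 16.1 and 14.4 CPM for Smad2 and 104, 71.5 and 58.95 CPM for Smad7 in the order polyA control, polyA miR-106b and Ago2-IP control. Of the other 3 genes that fell, Tgfb1 was just above its Ago2-IP control level (194, 169.5 and 169.0 CPM), while Bmpr2 (79.4, 56.9 and 61.8 CPM) and Tgfbr1 (11.7, 9.13 and 9.52 CPM) were below theirs. With TMM within each RNA kind all 5 lay between, but that scaling does not set the 2 kinds against each other. The marker sums were scaled to library size only, and the share of all genes that lay between was not counted.

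Both ratio calls were sensitive to single libraries. Smad2 passed in 6 of 16 fits without 1 library, with a ratio change of 0.59 to 0.78 and an adjusted p of up to 0.0851. It was lost without replicate 1, 2 or 3 of polyA control, 3 or 4 of polyA miR-106b, 1, 2 or 4 of Ago2-IP control, or 2 or 3 of Ago2-IP miR-106b. Smad7 passed in 11 of 16, with a change of 0.43 to 0.63 and an adjusted p of up to 0.0659, and was lost without polyA control replicate 3, polyA miR-106b replicate 4, Ago2-IP control replicate 2 or 3, or Ago2-IP miR-106b replicate 4.

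The other 4 seed-site genes did not pass. Tgfb3 had a ratio change of -0.25 ± 0.198 (-0.05 without polyA miR-106b replicate 1), Tgfbr1 one of 0.44 ± 0.263 (adjusted p = 0.228), Bmpr2 one of 0.31 ± 0.174 (adjusted p = 0.200) and Tgfbr2 one of 0.06 ± 0.149 (adjusted p = 0.794, edgeR). When TMM scaling was set within each RNA kind in place of over all 16 libraries, the ratio change of Bmpr2 was 0.46 with an adjusted p of 0.0489. That scaling moved the median ratio change of all genes from -0.07 to 0.08, and the share of higher among called genes from 27.9% to 45.0%. Of the genes without a site, Tgfbr3 had a ratio change of -0.33 ± 0.141 (adjusted p = 0.0848), which passed only without polyA control replicate 3 (adjusted p = 0.0485), Tgfb2 had -0.64 ± 0.413 (adjusted p = 0.279, and -0.17 without polyA miR-106b replicate 1) and Tgfb1 had 0.12 ± 0.112 (adjusted p = 0.476). Smad3 (0.03 ± 0.194) was also short of the threshold and changed sign in 4 of the fits without 1 library.

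**Figure D3:**
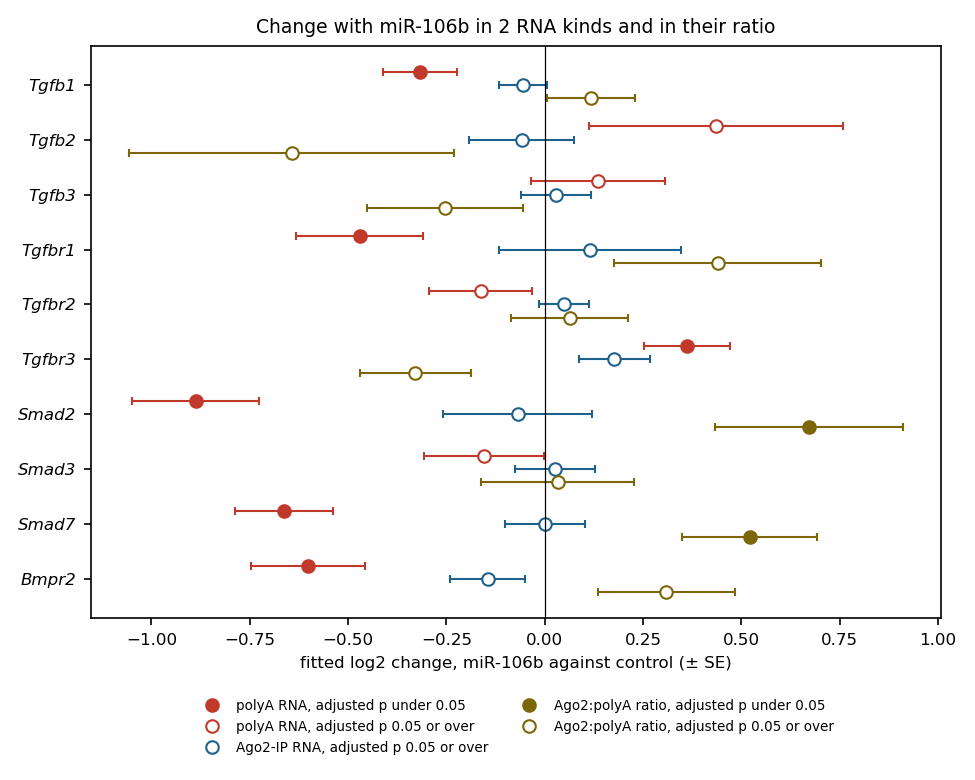
Fitted log2 change with miR-106b (x axis, ± SE) of the 10 genes (y axis) in polyA RNA, in Ago2-IP RNA and in the Ago2:polyA ratio, with filled points for an adjusted p under 0.05. Smad2 at -0.89 and Smad7 at -0.66 lead the falls in polyA RNA, every Ago2-IP value lies between -0.14 and 0.18, and the ratio is filled for Smad2 and Smad7 only.

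Ago2-IP RNA was also compared with polyA RNA within each transfection, for each transcript relative to other transcripts. In control the marker lists differed too, from polyA to Ago2-IP RNA. Means rose from 30844 to 120331 CPM (cardiac), 354 to 1366 CPM (endothelial) and 177 to 679 CPM (macrophage and blood). The JG and mural list rose from 2674 to 5951 CPM. Proliferation genes fell from 834 to 98.8 CPM and kidney tubule genes from 436 to 351 CPM. The part of these lists in the differences between RNA kinds was not tested. In control cells 9 of the 10 genes differed, 8 lower and 1 higher in Ago2-IP RNA, where 73.3% of all genes differed, 37.9% lower and 35.4% higher. Smad2 was lower by 0.96 ± 0.148 on the log2 scale (1.95-fold), Smad7 by 0.85 ± 0.094 (1.80-fold) and Tgfb2 by 0.78 ± 0.119 (1.72-fold), each with an adjusted p of at most 3.54e-06 (edgeR). Smad3, Tgfb3, Bmpr2, Tgfbr2 and Tgfb1 were lower by 0.58, 0.46, 0.40, 0.29 and 0.23. Tgfbr3 alone was higher, by 0.61 ± 0.094 (adjusted p = 4.07e-06), and Tgfbr1 at -0.33 ± 0.174 did not pass (adjusted p = 0.0924), although it did without Ago2-IP control replicate 1 (adjusted p = 0.0438). With scaling to library size only, the median of all genes moved from -0.06 to -0.35 and the share of higher among called genes from 48.3% to 37.6%, and Tgfbr1 then passed (adjusted p = 0.00264) while the direction of all 10 was kept.

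With miR-106b, 3 of the 10 genes differed between Ago2-IP and polyA RNA, all lower, where 38.5% of all genes differed, 19.8% lower and 18.6% higher. They were Tgfb2 at -1.40 ± 0.364 (adjusted p = 0.0174), Tgfb3 at -0.68 ± 0.171 (adjusted p = 0.00574) and Smad3 at -0.52 ± 0.169 (adjusted p = 0.0231, edgeR). Without replicate 1 of polyA miR-106b Tgfb2 was at -0.92 (adjusted p = 0.000303, edgeR). Smad3 lost its call without replicate 1 of polyA miR-106b (adjusted p = 0.0687) or of Ago2-IP miR-106b (adjusted p = 0.0876). Smad2 at -0.26 ± 0.194 and Smad7 at -0.30 ± 0.134 did not pass (adjusted p = 0.309 and 0.0933), although Smad7 did without polyA miR-106b replicate 4 (adjusted p = 0.0395). Tgfbr3 at 0.31 ± 0.118 did not pass either (adjusted p = 0.0518), but passed in 4 alternative fits. Scaled to library size only, 5 of the 10 passed, Smad7 (adjusted p = 0.0189) and Tgfbr2 (adjusted p = 0.0467) in addition, with a median of all genes of -0.19 in place of -0.04 and a share of higher calls of 34.0% in place of 48.5%. Tgfbr2 at -0.20, Tgfb1 at -0.08, Bmpr2 at -0.05 and Tgfbr1 at 0.14 were within their error of the polyA level or close to it. Among all 14897 genes, ranked by log2 Ago2:polyA ratio, Smad2 stood at percentile 20.9 in control and 36.8 with miR-106b, and Smad7 at 23.1 and 34.9. Tgfb2 stood at 25.3 and 5.61, but its ratio change did not pass the test and rested on replicate 1 of polyA miR-106b.

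**Figure D4:**
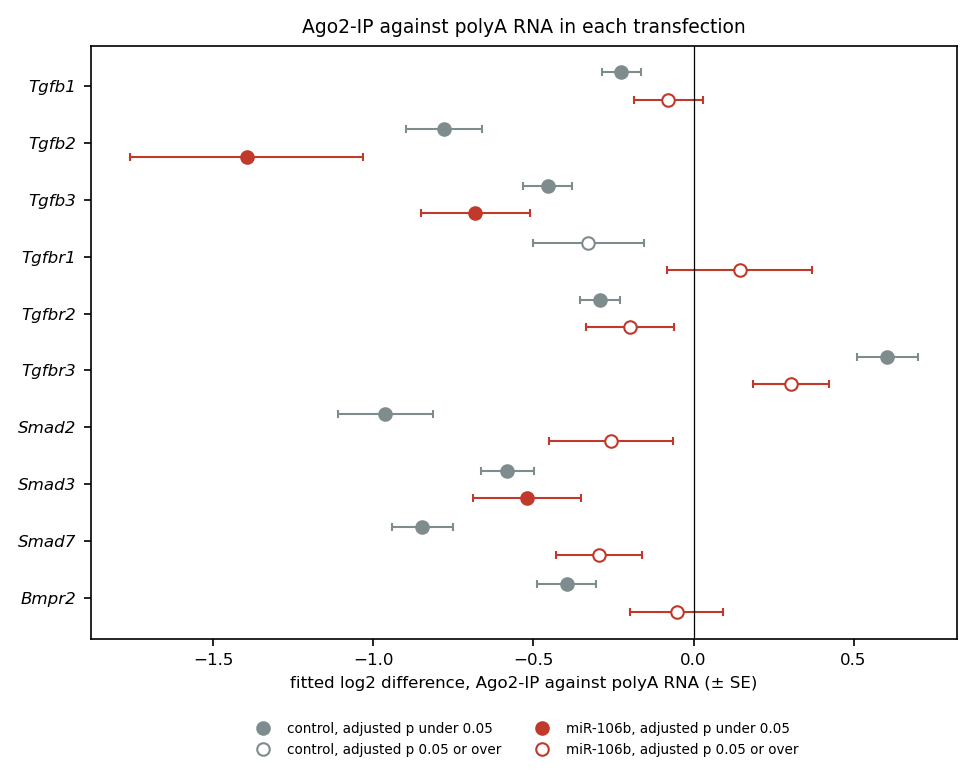
Fitted log2 difference between Ago2-IP and polyA RNA (x axis, ± SE) of the 10 genes (y axis) in control and in miR-106b transfections, with filled points for an adjusted p under 0.05. In control all genes but Tgfbr3 (0.61) lie below 0, and with miR-106b Tgfb2 (-1.40), Tgfb3 (-0.68) and Smad3 (-0.52) are filled.

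Levels of different genes were compared per kilobase of merged M21 exon that lies inside the gene as the count table gives it, since the counted Tgfbr2 and Smad2 end short of their M21 3′ ends. In polyA control the order was Tgfb1 (43.5 ± 1.39 CPM per kb, SD, n = 4), Tgfbr2 (38.5 ± 1.21), Tgfb3 (31.3 ± 2.80), Smad7 (26.0 ± 1.72), Smad3 (16.3 ± 1.13), Tgfb2 (9.86 ± 1.63), Smad2 (8.74 ± 1.37), Tgfbr3 (6.88 ± 0.714), Bmpr2 (4.999 ± 0.594) and Tgfbr1 (2.02 ± 0.194). Among the control libraries Smad2 overlapped with both its neighbours, and the other neighbours were apart. Over the full M21 exons, a choice added after the data were seen, Tgfbr2 came to 22.5 and Smad2 to 3.53 CPM per kb, so that their places in the order rest on the length used. Smad7 was at a higher level per length than Smad3 and Smad2, and the type II receptor Tgfbr2 at a higher one than its type I partner Tgfbr1, with either length. With miR-106b the polyA levels of Tgfb1 (34.9 ± 1.16 CPM per kb), Tgfbr2 (34.3 ± 6.90) and Tgfb3 (34.3 ± 9.68) overlapped, as did Smad7 (16.4 ± 2.70) with Smad3, Smad3 with Tgfb2 (13.2 ± 7.37) and Tgfb2 with Tgfbr3 (8.84 ± 0.228). In Ago2-IP control Smad7 overlapped with Smad3, Smad3 with Tgfbr3, and Smad2 (3.71 ± 0.572 CPM per kb) with Tgfb2 and Bmpr2, while Tgfbr1 was lowest at 1.33 ± 0.207.

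The rest of the pathway was read through 6 lists of genes, whose counts stand against 19% higher and 21.5% lower of all genes in polyA RNA, and 7.62% higher and 19.7% lower in the ratio. The genes named from each list are those that moved most among called genes averaging 5 CPM or more. Among 7 other receptors of the superfamily that were tested, 3 were higher and 1 lower in polyA RNA with miR-106b. Acvrl1 (ALK1), the type I receptor of endothelial cells, rose by 1.31 ± 0.236 on the log2 scale, from a mean of 21.1 ± 3.79 to 52.5 ± 18.9 CPM (SD, n = 4). Eng (endoglin), its coreceptor, rose by 1.24 ± 0.189, from 153 ± 24.98 to 361 ± 99.1 CPM. Both are expressed in vascular endothelium. In the same libraries the endothelial, cardiac, and macrophage and blood marker lists were 2.30-fold, 2.28-fold and 2.31-fold higher, and their part in these rises was not tested. Acvr1, a type I receptor of the BMP branch, fell by 0.59 ± 0.175 (adjusted p = 0.0168, edgeR), with groups that overlapped. This call was lost without polyA control replicate 1, 2 or 3 or polyA miR-106b replicate 2 or 4 (adjusted p of up to 0.0953). In the ratio 2 of the 7 were lower, Eng at -1.43 ± 0.208 and Acvrl1 at -1.39 ± 0.277. Of 5 other SMADs 2 fell in polyA RNA, Smad9, a transducer of BMP signals, at -0.88 ± 0.218 and Smad4, the common partner, at -0.45 ± 0.123, from 114 ± 11.6 to 83.3 ± 11.1 CPM. The groups of Smad4 overlapped, and its call was lost without polyA control replicate 1, 2 or 3 (adjusted p of up to 0.0958). Smad9 also had a higher ratio, by 1.20 ± 0.366 (adjusted p = 0.0166, edgeR), lost without Ago2-IP miR-106b replicate 1 (adjusted p = 0.0550).

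Of 18 genes for latency and activation of TGF-β, 6 were higher and 4 lower in polyA RNA. The αv integrin subunit Itgav, which pairs with β subunits that release latent TGF-β, fell by 1.14 ± 0.166, from 186 ± 18.7 to 84.1 ± 21.8 CPM. Ltbp1, which tethers the latent complex to matrix, fell by 0.90 ± 0.165, from 250 ± 20.9 to 134 ± 36.6 CPM. Nrros, which holds latent TGF-β on macrophages and microglia, rose by 1.26 ± 0.223 and the epithelial integrin subunit Itgb6 by 1.20 ± 0.261, to 23.7 and 7.04 CPM. In the ratio 3 of the 18 were higher, led by Itgav at 0.96 ± 0.220 and Ltbp1 at 0.83 ± 0.185, and 6 were lower, led by Nrros at -1.55 ± 0.251 and the protease Mmp9 at -1.48 ± 0.375.

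Of 19 tested activin, BMP and GDF ligands and antagonists, 7 were higher and 3 lower in polyA RNA, with a median of 0.46. Inhba, the subunit of activin A, fell by 1.50 ± 0.220, from 63.7 ± 4.94 to 22.3 ± 9.16 CPM, and its antagonist Fst fell by 0.89 ± 0.242, from 29.8 ± 1.45 to 15.9 ± 7.24 CPM (lost without polyA control replicate 3, adjusted p = 0.0523, edgeR). Bmp4 rose by 1.32 ± 0.400, to 8.47 CPM (lost without polyA miR-106b replicate 4, adjusted p = 0.0695), and Bmp6 by 1.13 ± 0.295, to 17.6 CPM, with groups that overlapped for Bmp6. In the ratio 1 of the 19 was higher, Inhbb at 0.74 ± 0.261 (adjusted p = 0.0362, edgeR, lost in 9 of 24 alternative fits), and 5 were lower, among those averaging 5 CPM or more led by Bmp4 at -1.87 ± 0.470 and Bmp6 at -1.32 ± 0.312.

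Of 21 tested regulators of receptor and SMAD signalling, 9 were lower and 1 higher in polyA RNA, and 11 did not pass, with a median of -0.26. The deubiquitinase Usp15 fell by 0.90 ± 0.217, from 24.8 ± 2.6 to 13.1 ± 4.79 CPM, and the SMAD corepressor Tgif1 by 0.72 ± 0.226, from 49.4 ± 2.68 to 29.4 ± 11.5 CPM (lost without polyA control replicate 1, 2 or 3, adjusted p of up to 0.116). Ski, another corepressor, rose by 0.46 ± 0.127, from 193 ± 6.14 to 266 ± 46.3 CPM. In the ratio 1 was higher, Usp15 at 0.89 ± 0.285 (adjusted p = 0.0218, edgeR, lost without polyA control replicate 2 or Ago2-IP control replicate 3, up to 0.0524), and 2 were lower, Ski at -0.64 ± 0.140 and the decoy receptor Bambi at -0.99 ± 0.361, the latter lost in 18 of 24 alternative fits.

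Among 24 genes that TGF-β is known to induce, 7 were higher and 8 lower in polyA RNA, with a median of -0.07. Fn1 (fibronectin) fell by 1.15 ± 0.211, from 10596 ± 538 to 4789 ± 1461 CPM. Id2, an inhibitor of basic helix-loop-helix factors, fell by 0.98 ± 0.328, from 69.6 ± 11.003 to 35.1 ± 19.9 CPM (adjusted p = 0.0377, edgeR), with groups that overlapped, and its call was lost in 9 of 16 alternative fits, among them those without polyA control replicate 1, 2, 3 or 4 or polyA miR-106b replicate 1, 2 or 4 (adjusted p of up to 0.153). Postn (periostin) rose by 1.42 ± 0.345, from 83.0 ± 10.1 to 223 ± 118 CPM (adjusted p = 0.0103, edgeR, and 0.0539 with no filter), and Col1a2 (a chain of type I collagen) by 1.23 ± 0.193, from 767 ± 117 to 1801 ± 489 CPM. In the ratio 4 of the 24 were higher, led by Fn1 at 0.97 ± 0.213 and the matricellular gene Ctgf at 0.66 ± 0.171, and 7 were lower, led by Postn at -1.52 ± 0.406 and Col1a2 at -1.42 ± 0.208. No gene of the 6 lists differed in Ago2-IP RNA after adjustment (edgeR), and none had an unadjusted p under 0.05.

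**Figure D5:**
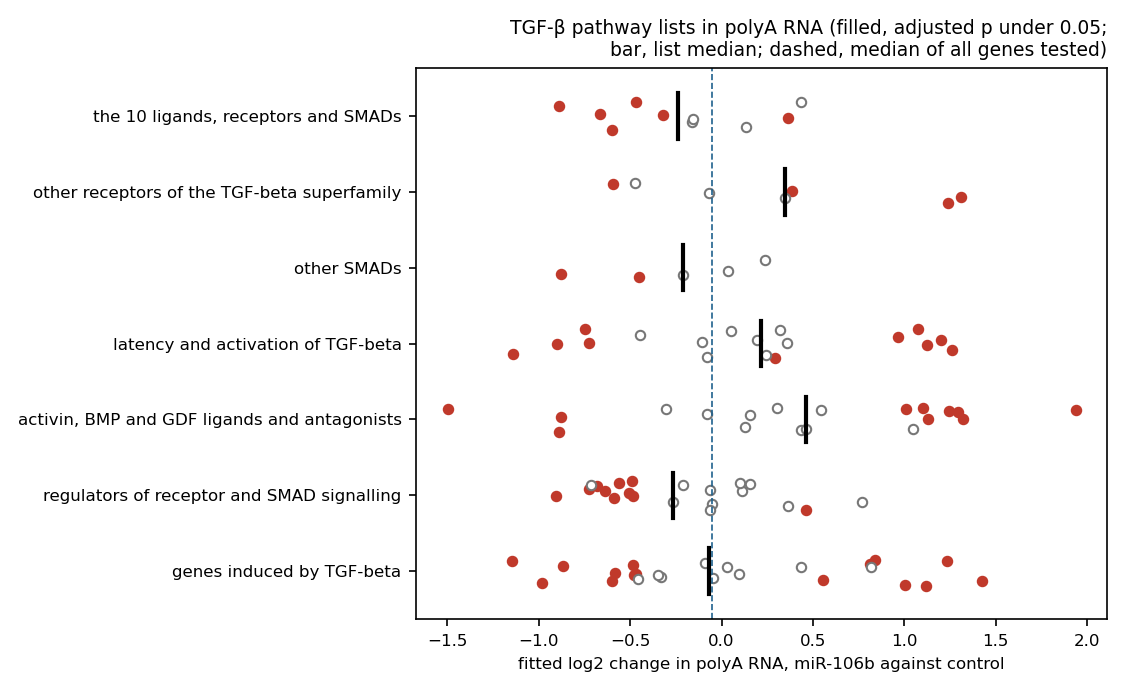
Fitted log2 change in polyA RNA with miR-106b (x axis) of every tested gene of the 10-gene set and the 6 pathway lists (y axis), with filled points for an adjusted p under 0.05, bars at list medians and a dashed line at the median of all genes (-0.05). The 10 genes have a median of -0.24 and the regulators one of -0.26, whereas ligands and antagonists outside the set have one of 0.46.

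Across the 16 libraries the genes whose log2 CPM was most like that of Tgfbr2, out of 10947 genes averaging 5 CPM or more, were Actr1a (Pearson's r = 0.926), Rhoc (0.914) and Sulf1 (0.912). For Bmpr2 they were Eea1 (0.918), Bok (0.909) and Otud4 (0.907), and for Smad7 they were Ddx39 (0.970), Pan3 (0.968) and Nme1 (0.966). Within the set, Tgfbr2 was most like Smad3 (0.799), Bmpr2 most like Smad7 (0.756) and Smad7 most like Tgfb1 (0.818), while Tgfbr3 was opposite to all 3, with r of -0.525, -0.668 and -0.830. These values are descriptions over 16 libraries that share 2 RNA kinds and 2 transfections, and most tested genes differed between the RNA kinds in control cells.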

How the data were processed

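RNA of mouse cells labelled as JG cells was measured in 16 libraries, 4 per combination of transfection and RNA kind, and each was grouped by its label. According to the study's methods, single-end reads of 50 bases were aligned to GRCm38 with TopHat2, and HTSeq counted them on Ensembl genes. Per the labels the libraries carry no strand information. The deposited values are the authors' raw counts per gene, with no normalization. Start positions in the table count from 0 and are given here from 1.

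A gene was kept where 3 or more of the 4 replicates of some group had 1 CPM or more, which left 14897 genes. Counts were tested in R 4.3.3 with edgeR 4.0.16 (TMM scaling, robust dispersion and the two-sided quasi-likelihood F test, with Benjamini-Hochberg adjustment over all 14897 genes and a threshold of 0.05), in a fit for each pair of groups and in a fit of all 16 libraries for the ratio. The SE is the log2 change over the square root of F, and approximate 95% intervals are 1.96 SE wide on each side. The prior count was 0.125 for fitted changes and 2 for log2 CPM. Levels are CPM after TMM within each RNA kind, ratios of RNA kinds used TMM over the libraries compared, and marker sums were scaled to library size only and compared with scipy 1.17.1. A count of 0 allows up to 3 counts, or 0.317 to 1.16 CPM by library, for counting error only. The tests were tried on simulated counts first.

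Seed sites came from GENCODE release M21 annotation and transcripts, where the M21 gene starts matched 87.3% of 44950 genes in the table, and microRNA sequences from RefSeq. The 10 genes and the lists were chosen with earlier results of these data known, and 1 gene of the list that TGF-β induces is not reported here and was taken out for that reason, not for its values. From each list the text names up to 2 rises and 2 falls, the largest in polyA RNA and in the ratio among called genes averaging 5 CPM or more. Alternatives were DESeq2 1.42.0 size factors and Wald test, TMM within each RNA kind, scaling by library size, other filters, edgeR's likelihood ratio test, a replicate block, 1 fit of all libraries, and each library left out in turn.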

Additional observations from a re-analysis of the deposited data

Results flagged for a closer look

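A library stood far from the other 3 of its group, by Dixon's test, in 5 of 64 groups tested over the 10 genes and the marker lists, where chance flags about 1 in 20. These were Tgfbr2 in polyA miR-106b (213 CPM in replicate 1), Smad7 in polyA control (106.1 CPM in replicate 4), Tgfbr1 in Ago2-IP miR-106b (12.2 CPM in replicate 3), Smad3 in Ago2-IP miR-106b (39.9 CPM in replicate 1), and the summed endothelial markers in Ago2-IP control (1401 CPM in replicate 2).

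The change with miR-106b differed between the RNA kinds, by edgeR's test of the interaction, for Smad2 (log2 difference 0.67) and Smad7 (0.52). Among the pathway lists it was higher in Ago2-IP than in polyA RNA for Smad9 (1.20), Itgav (0.96), Ltbp1 (0.83), Inhbb (0.74), Usp15 (0.89), Fn1 (0.97) and Ctgf (0.66). It was lower for Eng (-1.43), Acvrl1 (-1.39), Nrros (-1.55), Mmp9 (-1.48), Bmp4 (-1.87), Bmp6 (-1.32), Bambi (-0.99), Ski (-0.64), Postn (-1.52) and Col1a2 (-1.42).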

How the results depend on the processing

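Of the 160 alternative values for the 10 genes in polyA RNA, none changed sign, 21 lost a call and 1 gained one. Without the filter on low counts 3 of the 10 were called there, Smad2, Smad7 and Bmpr2, and leaving out 1 library gave 3 to 6. For the ratio, leaving out 1 library gave 0 to 2 called genes of the 10. Between Ago2-IP and polyA RNA with miR-106b, library size scaling called 5 of the 10 and 6084 of all 14897 genes. In Ago2-IP RNA, where the main test called 0 of all genes, 20 were called with no filter, 2 with at least 10 counts in every library, 2 by DESeq2's Wald test, 18 by the likelihood ratio test, 1 with the replicate block and 0 to 40 without 1 library. Changes near 0 turned sign. Smad7 in Ago2-IP RNA was at -0.013 with no filter, -0.0171 by the likelihood ratio test and -0.0169 in 1 fit of all libraries, and Tgfbr1 in Ago2-IP against polyA RNA with miR-106b was at -0.0052 under library size scaling. Without 1 library the Ago2-IP changes ran from -0.124 to 0.0038 (Tgfb2), -0.0274 to 0.066 (Tgfb3), -0.0376 to 0.215 (Tgfbr1), -0.129 to 0.0407 (Smad2), -0.0132 to 0.117 (Smad3) and -0.0951 to 0.0925 (Smad7), the ratio change of Smad3 from -0.0547 to 0.218, and the difference between RNA kinds with miR-106b from -0.0108 to 0.207 for Tgfbr1 and from -0.168 to 0.0328 for Bmpr2. The causes were not tested. Replicate numbers are shared across groups, but libraries of the same number correlated between -0.383 and 0.220 over 16 pairs, 3 of which were best with their own number, so they were not treated as paired. With the replicate block 5 of the 10 were called in polyA RNA and 2 for the ratio. In polyA RNA the share of higher among called genes was 47.0% and became 61.4% with all 16 libraries in 1 fit, which moved the median of all genes from -0.05 to 0.07. In the ratio library size scaling gave 46.3% higher. In Ago2-IP RNA the largest standard errors belonged to the 2 genes of lowest level, Tgfbr1 and Smad2, and in polyA RNA and the ratio to Tgfb2 (0.322 and 0.413).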
